A study of Homo sapiens with 6 samples.

Results

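The TGF-beta and BMP pathway was examined in the human melanoma cell line A375 as 48 named components, taken as the rows of the deposited count table whose gene name equals that of a listed ligand, latency protein, inhibitor, receptor, SMAD, regulator or target. Of the 48 names, 46 had a row among the 20851 gene names of the table, while GREM1 and ID3 were not analysed here. In all, 44 members had enough counts to be tested among 14443 genes, and INHBB and BMP7 did not.

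The A375neg libraries (n = 3) came from control A375 cells that the labels describe as a GFP control and the study's methods as a negative control of the CRISPR/Cas9 procedure. The A375RIPK4.KO libraries (n = 3) came from A375 cells in which RIPK4, a receptor-interacting serine/threonine kinase, had been knocked out with CRISPR/Cas9. The knockout subline sequenced was clone #1, so an effect of RIPK4 and a property of that 1 clone cannot be told apart. By the labels GFP goes with A375neg only, so its part cannot be told apart from the group either. Poly(A) RNA was sequenced from strand-specific libraries, and the libraries held 21882863 to 26694140 counts over all genes. The comparison asks how loss of RIPK4 altered the transcripts of this pathway in melanoma cells.

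Ligands of the TGF-beta family are secreted dimers that bring together type I and type II serine/threonine kinase receptors. In the TGF-beta and activin branch the activated type I receptor phosphorylates SMAD2 and SMAD3, whereas in the BMP branch it phosphorylates SMAD1, SMAD5 and SMAD9. Both kinds of receptor-activated SMAD join SMAD4 and enter the nucleus, where BMP signalling induces the ID genes together with SMAD6, and TGF-beta induces genes such as SMAD7 and TGFBI. Secreted antagonists, the pseudoreceptor BAMBI, the inhibitory SMADs and the SMURF ubiquitin ligases restrain the pathway, and several of them are themselves induced by it. TGF-beta is an established regulator of motility and of the matrix in melanoma.

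RIPK4 itself had raw counts of 319, 368 and 404 in the A375neg libraries and of 42, 51 and 61 in the A375RIPK4.KO libraries. Its transcript was thus lower in every A375RIPK4.KO library but still present, with a log2 fold change of -2.69 (SE 0.17, adjusted p = 1.01e-05, edgeR). A CRISPR edit need not remove a transcript, so the count bears on the labels and not on the protein. Marker counts cannot identify a cell line, for which the paper reports short tandem repeat profiling. The lineage of the cells was checked against melanocyte lineage markers, of which 6 of 10 were listed. Their summed level was 395.8 to 425.5 CPM (counts relative to the TMM-scaled library size) in A375neg and 343.0 to 359.2 CPM in A375RIPK4.KO, nearly all of it SOX10. Within the list, MITF (log2 fold change -0.44, adjusted p = 0.0449) and S100B (-0.89, adjusted p = 0.036) were lower in A375RIPK4.KO, and their part in the pathway values was not tested. SOX10 was not called (-0.20, adjusted p = 0.0507), although its groups did not overlap. PAX3 was not called either (-0.11, adjusted p = 0.672), and its groups overlapped. Of the keratinocyte and epithelial markers, KRT14 carried a summed level of 19.2 to 23.2 CPM in A375neg and 5.75 to 6.98 CPM in A375RIPK4.KO and was lower (log2 fold change -1.75, adjusted p = 3.46e-05), while KRT5 and EPCAM had at most 11 and 6 counts. Its part in the pathway values was not tested either. The pigment genes PMEL and TYRP1 had at most 22 and 8 counts in any library, and MLANA, TYR, DCT and KIT were not analysed here. Of the fibroblast markers 4 of 6 were listed, and their summed level was low, at 7.5 to 9.23 CPM in A375neg and 6.20 to 6.47 CPM in A375RIPK4.KO, most of it PDGFRB. None of them was called by edgeR, although LUM, lumican, had an unadjusted p of 0.00969 (log2 fold change -1.38, adjusted p = 0.0552) at 7 to 39 counts, and COL1A1 had 1 to 27 counts (-1.34, adjusted p = 0.177). Of the leukocyte markers 4 of 6 were listed, with a summed level of 43.6 to 49.9 CPM in A375neg and 47.9 to 51.3 CPM in A375RIPK4.KO. Nearly all of it was CD68, a lysosomal protein, at 1033 to 1251 counts, while PTPRC and ITGAM, which define leukocytes, had at most 3 and 5 counts in any library. LYZ, lysozyme, was lower, with 38, 36 and 37 counts in A375neg and 13, 0 and 3 in A375RIPK4.KO (log2 fold change -2.62, adjusted p = 0.0382). Replicate 2 of A375RIPK4.KO stood apart in how its counts varied with gene length, with a slope of -0.145 where the other 5 libraries had slopes of -0.01 to 0.05 (log2 CPM, relative to the mean of all libraries, per log10 unit of exon length). Where leaving out that library changed the call or the sign of a member, this is stated.

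Among the 44 tested members, 15 differed between A375RIPK4.KO and A375neg at an adjusted p under 0.05 (quasi-likelihood test of edgeR, with Benjamini-Hochberg adjustment across the 14443 genes), which is 34.1% of them against 16.6% of all genes tested. Higher in A375RIPK4.KO were 7 members (BMP2, BMP6, LTBP2, NOG, ENG, SMURF2 and TGFBI), where 8.4% of all genes were higher. Lower were 8 members (FST, TGFBR1, TGFBR2, BAMBI, SMAD6, TGIF1, ID1 and ID2), where 8.24% of all genes were lower. A change of at least 1.5-fold was called for 12 members, or 27.3% of them against 9.04% of all genes. Of these, 5 were higher (4.39% of all genes) and 7 lower (4.65% of all genes). In 27 members every library of one group lay beyond every library of the other, as they did in 36.5% of all genes tested. Over the 44 tested genes the median log2 fold change of members was -0.09, beside -0.0047 for all genes, but its sign turned with a minimum mean of 50 counts (0.023) and it was -0.013 without replicate 2 of A375RIPK4.KO. In bulk libraries such as these, less of a transcript per cell and fewer cells that carry it cannot be told apart.

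**Figure D1:**
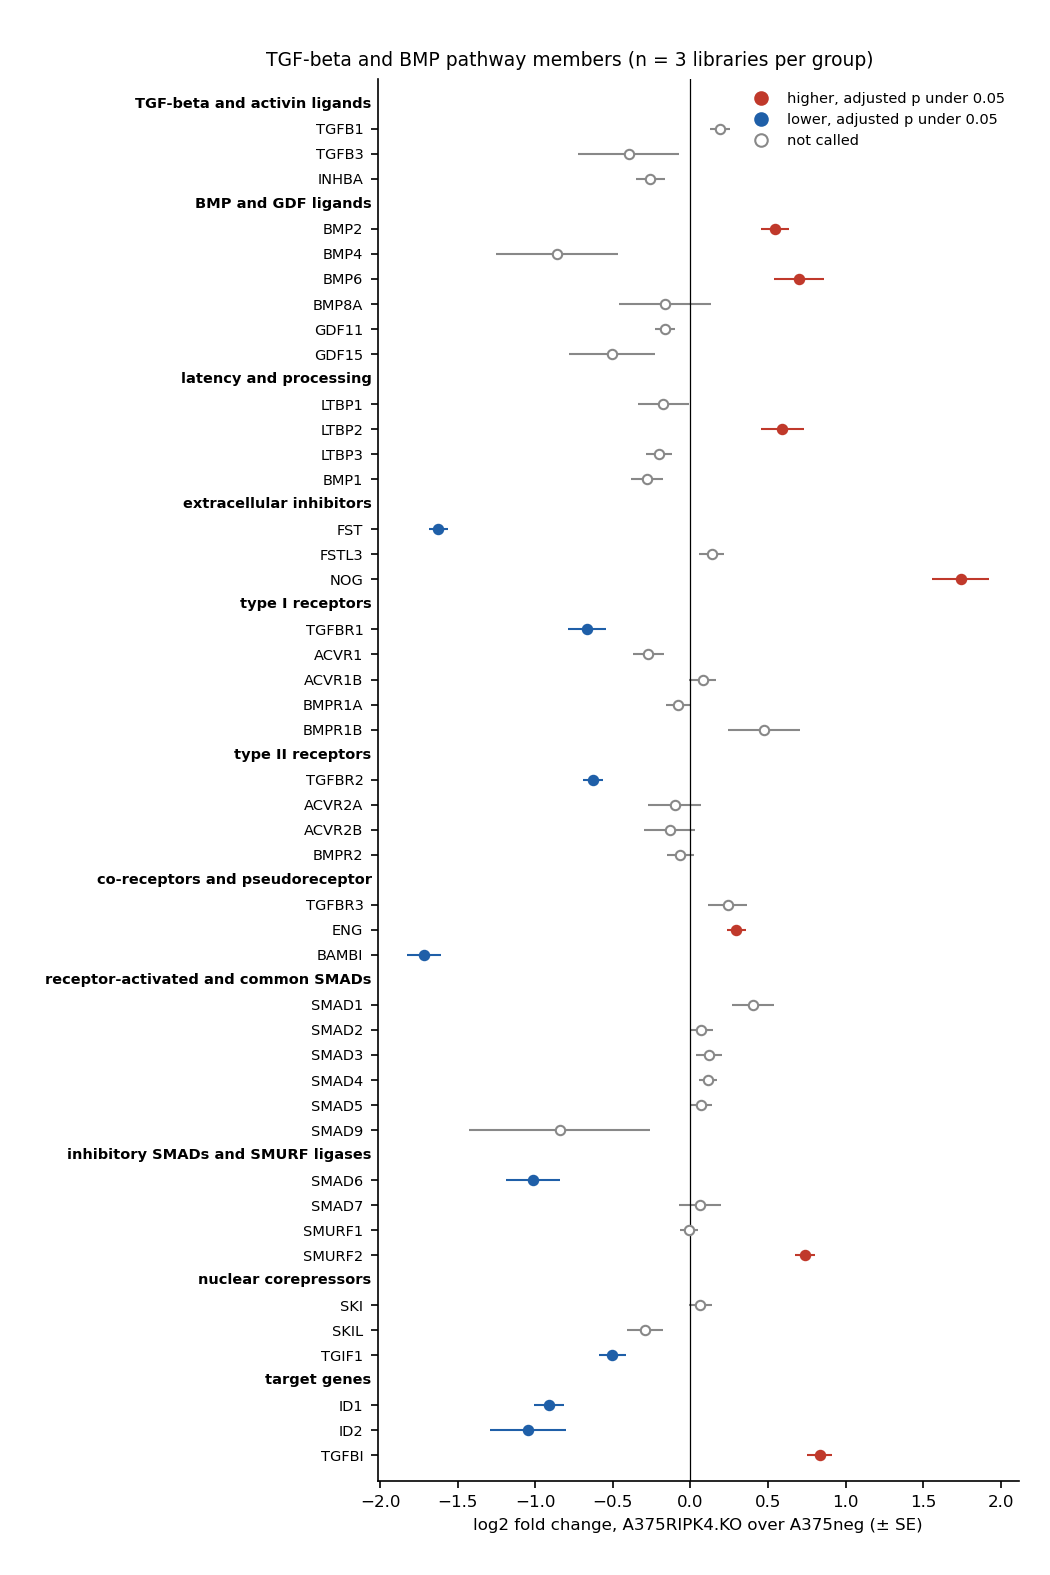
Log2 fold change of the 44 tested members, A375RIPK4.KO over A375neg, grouped by role in the pathway (points, with bars of 1 SE, n = 3 libraries per group, filled where the adjusted p was under 0.05). BAMBI at -1.72 and FST at -1.62 lie at the low end and NOG at 1.74 at the high end, while the 6 receptor-activated and common SMADs have open symbols.

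None of the 3 tested ligands of the TGF-beta and activin branch was called by edgeR, where 16.6% of all genes were. Nothing particular to the branch is read from this count. TGFB1, the predominant TGF-beta isoform in most tissues, had 5314, 6011 and 6094 raw counts in A375neg and 5747, 6412 and 5939 in A375RIPK4.KO. After scaling for library size the A375RIPK4.KO libraries all lay above the A375neg libraries, but by a log2 fold change of only 0.19 (SE 0.06, adjusted p = 0.0761). INHBA, which encodes the activin A subunit, had 9346, 9660 and 10633 counts in A375neg and 7951, 6534 and 8026 in A375RIPK4.KO. The INHBA groups did not overlap either, and the log2 fold change was -0.26 (SE 0.09, adjusted p = 0.0954). Both genes passed the threshold with DESeq2. INHBA also passed it in edgeR with a replicate block (adjusted p = 0.0364) or without replicate 1 of A375RIPK4.KO (log2 fold change -0.33, adjusted p = 0.0476), and its value was -0.16 without replicate 2 of A375RIPK4.KO. TGFB3 was scarce, with 17 to 38 counts per library (adjusted p = 0.462), and INHBB had at most 7 counts.

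Of the 6 tested BMP and GDF ligands 2 were called (33.3% against 16.6% of all genes). Both were higher, as were 8.4% of all genes. BMP2 (chr20:6767664-6780280, gene coordinates here being those of GENCODE on GRCh38), a ligand of the BMP type I receptors, had 752, 887 and 971 raw counts in A375neg and 1103, 1239 and 1120 in A375RIPK4.KO. Its normalized count was 830 ± 84.9 (SD, n = 3) in A375neg and 1211 ± 79.0 in A375RIPK4.KO, a log2 fold change of 0.55 (SE 0.09, adjusted p = 0.00327). BMP6 (chr6:7726797-7881422), another BMP ligand known for its part in iron regulation, had 173, 156 and 146 counts in A375neg and 260, 226 and 215 in A375RIPK4.KO. Every A375RIPK4.KO library thus exceeded every A375neg library, and the log2 fold change was 0.70 (SE 0.16, adjusted p = 0.0172). The call for BMP6 was lost without replicate 2 or 3 of A375neg or replicate 1 of A375RIPK4.KO, with adjusted p up to 0.072.

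The other BMP and GDF ligands were not called, and their log2 fold changes ran from -0.86 to -0.16. BMP4, which shares its receptors with BMP2, had only 13 to 45 counts per library, and its value of -0.86 had an SE of 0.39 (adjusted p = 0.179). GDF11, a ligand of the activin type II receptors, had 1985 to 2571 counts, and its log2 fold change was -0.17 (adjusted p = 0.114). Without replicate 2 of A375RIPK4.KO the GDF11 value was -0.20 and passed the threshold (adjusted p = 0.0275). GDF15, a stress-induced divergent member of the family, had 24 to 55 counts. BMP8A, with 19 to 35 counts, has the near-identical copy BMP8B, so its count is uncertain, and BMP7 had at most 15 counts in any library.

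Of the latency and processing proteins, 1 of 4 was called, LTBP2 (25%, close to the 16.6% of all genes). LTBP2 (chr14:74498170-74612378), a matrix protein related to the latent TGF-beta binding proteins that does not itself bind latent TGF-beta, had 230, 250 and 249 raw counts in A375neg and 358, 276 and 366 in A375RIPK4.KO. Replicate 2 of A375RIPK4.KO lay close to the A375neg libraries, and the log2 fold change over all libraries was 0.59 (SE 0.14, adjusted p = 0.0175). The call remained without that library (adjusted p = 0.00191) and was lost when any of the other 5 libraries was left out (adjusted p up to 0.0653). LTBP1 and LTBP3, which hold latent TGF-beta in the matrix, had log2 fold changes of -0.18 (adjusted p = 0.52) and -0.20 (adjusted p = 0.148). The LTBP3 value ran from -0.27 to -0.11 when each library was left out in turn, and was never called. BMP1, a procollagen C-proteinase that also cleaves the BMP antagonist chordin, had 496 to 564 counts in A375neg and 363 to 440 in A375RIPK4.KO. Its groups did not overlap, and the log2 fold change was -0.28 (adjusted p = 0.0949), which passed the threshold only without replicate 2 of A375RIPK4.KO.

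The secreted inhibitors held opposite changes of similar size. FST (chr5:53480409-53487134) encodes follistatin, which binds and neutralises activins and with lower affinity several BMPs. Its raw counts were 3864, 3985 and 3835 in A375neg and 1121, 1124 and 1208 in A375RIPK4.KO. The groups were far apart and the libraries within each group close together, with normalized counts of 3723 ± 123 (SD, n = 3) and 1208 ± 29.9. FST was 3.08-fold lower in A375RIPK4.KO, a log2 fold change of -1.62 (SE 0.06, adjusted p = 5.57e-07), and stayed between -1.64 and -1.60 when each library was left out in turn.

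NOG (chr17:56593699-56595590) encodes noggin, which binds BMPs and keeps them from their receptors. The A375neg libraries had 68, 114 and 113 raw counts of NOG and the A375RIPK4.KO libraries 284, 299 and 311. Replicate 1 of A375neg was the lowest of all, and the A375RIPK4.KO libraries were nearly equal after scaling, at 313 ± 2.49 against 93.4 ± 22 in A375neg (SD, n = 3). NOG was thus 3.34-fold higher in A375RIPK4.KO (log2 fold change 1.74, SE 0.19, adjusted p = 0.000256). FSTL3, a follistatin-like inhibitor of activin and GDF11, had 1442 to 1797 counts with overlapping groups and a log2 fold change of 0.14 (adjusted p = 0.289).

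**Figure D2:**
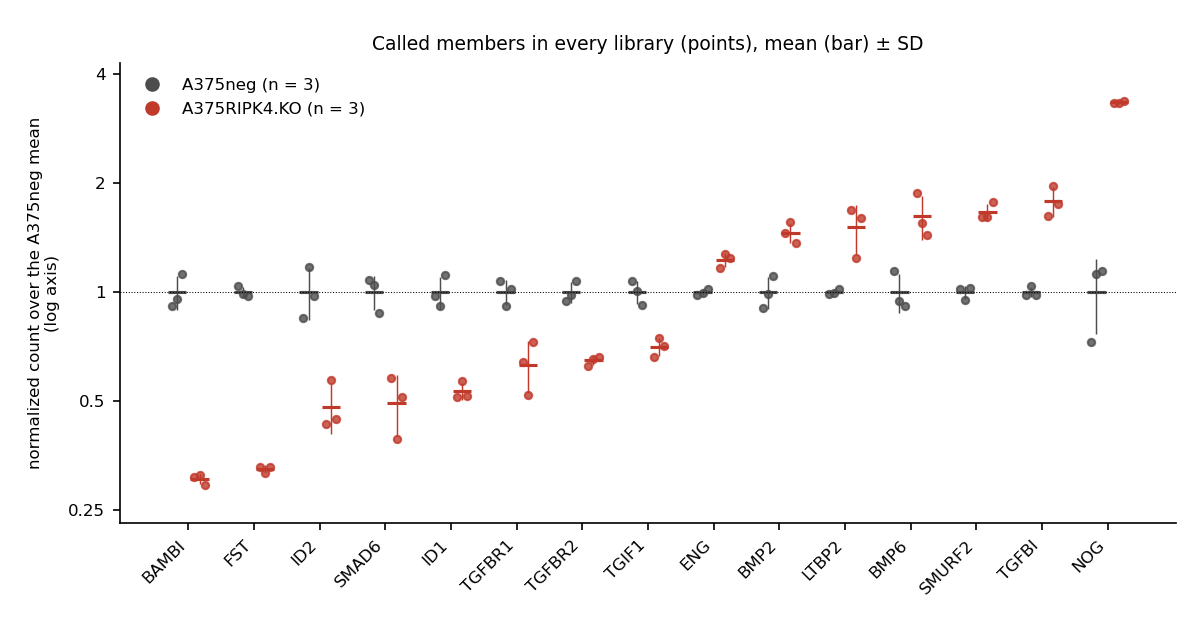
Normalized count of the 15 called members in every library relative to the A375neg mean of the same gene (log axis), with the mean and SD of each group (n = 3). For each of the 15, every A375RIPK4.KO library lies on one side of every A375neg library, from BAMBI and FST, which are 3.29-fold and 3.08-fold lower, to NOG, which is 3.34-fold higher.

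Of the type I receptors 1 of 5 was called (20%) and of the type II receptors 1 of 4 (25%), shares not far from the 16.6% of all genes. The called receptors were TGFBR1 and TGFBR2, and a difference between the branches was not tested. TGFBR1 (chr9:99104038-99154192), the type I receptor for TGF-beta, had 871, 806 and 873 raw counts in A375neg and 478, 404 and 583 in A375RIPK4.KO. All A375RIPK4.KO libraries were below all A375neg libraries, although they spread more widely among themselves, with normalized counts of 512 ± 85.2 against 814 ± 65.3 (SD, n = 3). Its log2 fold change was -0.67 (SE 0.12, adjusted p = 0.00578). TGFBR2 (chr3:30606502-30694142), the type II receptor that binds TGF-beta and recruits TGFBR1, had 3424, 3878 and 4120 counts in A375neg and 2077, 2274 and 2375 in A375RIPK4.KO. The TGFBR2 groups were well separated, at 3634 ± 247 and 2351 ± 71.7 normalized counts, and the log2 fold change was -0.63 (SE 0.07, adjusted p = 0.000256). Both receptors remained called whichever library was left out.

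ACVR1B, the activin type I receptor, had a log2 fold change of 0.08 (SE 0.09, adjusted p = 0.592), and ACVR1, a BMP and activin type I receptor, had one of -0.27 (SE 0.10, adjusted p = 0.102). BMPR1A, a BMP type I receptor at 850 to 1121 counts per library, had a log2 fold change of -0.08 (SE 0.08, adjusted p = 0.542). BMPR1B was scarce at 46 to 69 counts, with a log2 fold change of 0.47 (adjusted p = 0.208). The type II receptors ACVR2A, ACVR2B and BMPR2 had log2 fold changes between -0.13 and -0.07 (adjusted p of at least 0.636), with overlapping groups. In ACVR2B, replicate 2 of A375RIPK4.KO had 278 counts where the other A375RIPK4.KO libraries had 424 and 428. Without that library the values of ACVR2B and BMPR2 were 0.05 and 0.02, so their sign rests on it.

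BAMBI (chr10:28677342-28682939), a membrane protein that resembles a type I receptor without the kinase domain and blocks receptor complexes, fell the most of the members on the log2 scale. Its raw counts were 606, 688 and 784 in A375neg and 186, 197 and 191 in A375RIPK4.KO. The normalized counts were 661 ± 72.5 and 201 ± 6.35 (SD, n = 3), a 3.29-fold lower level in A375RIPK4.KO (log2 fold change -1.72, SE 0.11, adjusted p = 1.07e-05). ENG (chr9:127815012-127854756) encodes endoglin, a co-receptor for ligands of the family best known in endothelium, and had 2503, 2742 and 2742 counts in A375neg and 2718, 3107 and 3110 in A375RIPK4.KO. Its raw counts overlapped, but after scaling the A375RIPK4.KO libraries were all higher, at 3122 ± 139 against 2542 ± 50.3, with a small log2 fold change of 0.30 (SE 0.06, adjusted p = 0.0086). Without replicate 1 of A375neg the adjusted p was 0.050025, just over the threshold. The 4 endothelial markers checked, all listed, summed to 12.2 to 16.5 CPM in A375neg and 17.9 to 19.7 CPM in A375RIPK4.KO, most of it KDR. The members of that list went in opposite directions, since KDR, a VEGF receptor, was higher (log2 fold change 0.60, adjusted p = 0.0216) and PECAM1, an endothelial adhesion molecule, was lower, with 21, 23 and 24 counts in A375neg and 4, 5 and 5 in A375RIPK4.KO (log2 fold change -2.12, adjusted p = 0.00556). CDH5 and VWF had at most 14 and 5 counts in any library and were not tested. The part of these markers in the ENG value was not tested. TGFBR3, the co-receptor betaglycan, had 182 to 226 counts and a log2 fold change of 0.24 (adjusted p = 0.244).

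None of the 6 tested receptor-activated and common SMADs was called by edgeR, where 16.6% of all genes were, and 1 of them had an unadjusted p under 0.05, as had 4333 of the 14443 genes. Nothing particular to the SMADs is read from these counts. The SMAD with an unadjusted p under 0.05 was SMAD1, which had 240, 366 and 331 raw counts in A375neg and 346, 379 and 400 in A375RIPK4.KO. Scaled for library size its groups did not overlap, with a log2 fold change of 0.40 (SE 0.14, adjusted p = 0.0772). SMAD1 was not called by DESeq2 either, but passed the threshold in edgeR with the replicate block and the gene length correction together. SMAD2, SMAD3, SMAD4 and SMAD5 had log2 fold changes between 0.07 and 0.12 with SEs of 0.06 to 0.08. Of these, SMAD3 passed the threshold without replicate 2 of A375RIPK4.KO, at 0.20 (adjusted p = 0.0367). SMAD9 had 5 to 29 counts per library, and its value of -0.84 had an SE of 0.58.

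Among the intracellular inhibitors, SMAD6 was lower and SMURF2 higher. SMAD6 (chr15:66702228-66782848), which preferentially inhibits BMP receptors and is induced by BMP signalling, had 330, 346 and 282 raw counts in A375neg and 162, 115 and 154 in A375RIPK4.KO. The level in A375RIPK4.KO was 2.02-fold lower, with normalized counts of 151 ± 28.9 against 305 ± 33.4 (SD, n = 3) and a log2 fold change of -1.01 (SE 0.17, adjusted p = 0.00352). SMAD7, the inhibitory SMAD induced by TGF-beta and BMP that acts on both branches, had 291, 296 and 262 counts in A375neg and 234, 254 and 320 in A375RIPK4.KO. The SMAD7 groups overlapped, its log2 fold change was 0.06 (SE 0.14, adjusted p = 0.814), and the sign turned to -0.05 without replicate 3 of A375RIPK4.KO. Whether SMAD6 and SMAD7 differed in their response was not tested.

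SMURF2 (chr17:64542295-64662068), a ubiquitin ligase that targets SMADs and, bound to SMAD7, the TGF-beta receptors, had 3583, 3630 and 3794 raw counts in A375neg and 5181, 5419 and 6121 in A375RIPK4.KO. All A375RIPK4.KO libraries were higher, at 5842 ± 315 against 3507 ± 142 normalized counts (SD, n = 3), and the log2 fold change was 0.74 (SE 0.06, adjusted p = 8.59e-05). The related ligase SMURF1 had 1441 to 1734 counts and a log2 fold change of -0.01 (SE 0.06, adjusted p = 0.917), whose sign turned with the gene length correction or without replicate 3 of A375neg. An exon of SMURF2 overlaps 167 bases of the CEP95 gene on the other strand, and exons of TGFB1, GDF11, BMP8A, ACVR2A and SMURF1 likewise overlap an exon of another listed gene by 118 to 430 bases. The strand setting of the counting is not given in the sources used here.

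The nuclear corepressors bind SMADs and silence their targets. TGIF1 (chr18:3411608-3459978), a homeobox corepressor of SMAD2 and SMAD3, had 768, 786 and 697 raw counts in A375neg and 435, 512 and 502 in A375RIPK4.KO. It was lower in all A375RIPK4.KO libraries, with a log2 fold change of -0.50 (SE 0.09, adjusted p = 0.00421), or 1.42-fold. SKI had overlapping groups at 1974 to 2406 counts and a log2 fold change of 0.06 (adjusted p = 0.621). SKIL, which encodes SnoN and is itself induced by TGF-beta, had 1387, 1518 and 1513 counts in A375neg and 1150, 881 and 1253 in A375RIPK4.KO. Its groups did not overlap, and the log2 fold change was -0.29 (SE 0.11, adjusted p = 0.124). SKIL was called in none of the 6 edgeR fits that left out a library (lowest adjusted p 0.0921), and its value was -0.15 without replicate 2 of A375RIPK4.KO.

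All 3 target genes tested were called, in both directions, where 16.6% of all genes were. ID1 (chr20:31605283-31606515), an inhibitor of basic helix-loop-helix factors and a direct target of SMAD1 and SMAD5, had 884, 900 and 1067 raw counts in A375neg and 426, 493 and 462 in A375RIPK4.KO. The groups were well apart, at 908 ± 93.5 and 483 ± 27.5 normalized counts (SD, n = 3), and ID1 was 1.88-fold lower in A375RIPK4.KO (log2 fold change -0.91, SE 0.09, adjusted p = 0.000221). ID2 (chr2:8678845-8684453), a related BMP-induced inhibitor, was scarce, with 56, 84 and 68 counts in A375neg and 26, 36 and 29 in A375RIPK4.KO. Its log2 fold change was -1.05 (SE 0.24, adjusted p = 0.0181). That call was lost in 4 of the 6 fits that left out a library (adjusted p up to 0.0884), namely without replicate 2 or 3 of A375neg or replicate 1 or 3 of A375RIPK4.KO. ID2-AS1, whose exon overlaps ID2 by 19 bases on the other strand, had at most 2 counts in any library. A row for a scaffold copy of ID3 held 3 to 20 counts and was not called.

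TGFBI (chr5:136028895-136063818) encodes a secreted matrix protein named for its induction by TGF-beta, and moved the other way. Its raw counts were 7117, 8172 and 7483 in A375neg and 10776, 13626 and 12524 in A375RIPK4.KO. Every A375RIPK4.KO library was higher, and TGFBI was 1.78-fold higher in A375RIPK4.KO (log2 fold change 0.83, SE 0.08, adjusted p = 0.000124). With 12900 ± 1234 normalized counts against 7245 ± 245 in A375neg (SD, n = 3) the groups were far apart.

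ID1, ID2, SMAD6 and BAMBI are genes that BMP signalling is known to induce, and the 4 were grouped after they were seen to be lower. Of the other members counted as BMP targets, NOG was higher (log2 fold change 1.74, adjusted p = 0.000256, edgeR). SMAD7 (log2 fold change 0.06) and SMAD9 (-0.84, SE 0.58) were not called. A list of further BMP targets is given separately, so the group of 4 says nothing of BMP targets as a whole. The 250 bases before the RefSeq start of ID1, ID2, SMAD6 and BAMBI (GRCh38.p14) are shown. By that start they are the proximal promoters of the BMP-responsive members that were called lower. The RefSeq starts differ from the GENCODE gene coordinates given above. By those coordinates the ID2 window lies wholly inside the gene, and the ID1, SMAD6 and BAMBI windows lie partly inside theirs. The capitals mark GGCGCC, a motif bound by BMP-activated SMADs, and GTCTAGAC, the palindromic SMAD binding element. Each motif was searched on both strands, and so were CAGACA and TGANTCA, which occur in none of the 4 windows. TGANTCA allows any base at N and so is a wider pattern than the AP-1 site.
ID1 (chr20:31605039-31605288, + strand): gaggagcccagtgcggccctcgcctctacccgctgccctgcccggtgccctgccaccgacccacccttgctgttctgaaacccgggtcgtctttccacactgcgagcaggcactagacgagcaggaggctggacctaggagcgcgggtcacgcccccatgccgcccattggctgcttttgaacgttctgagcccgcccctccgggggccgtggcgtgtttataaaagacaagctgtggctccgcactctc
ID2 (chr2:8681806-8682055, + strand): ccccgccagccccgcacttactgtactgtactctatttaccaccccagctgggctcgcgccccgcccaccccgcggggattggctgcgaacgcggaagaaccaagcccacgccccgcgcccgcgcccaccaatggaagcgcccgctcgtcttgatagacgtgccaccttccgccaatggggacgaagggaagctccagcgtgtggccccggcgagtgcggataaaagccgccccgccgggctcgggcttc
SMAD6 (chr15:66701986-66702235, + strand): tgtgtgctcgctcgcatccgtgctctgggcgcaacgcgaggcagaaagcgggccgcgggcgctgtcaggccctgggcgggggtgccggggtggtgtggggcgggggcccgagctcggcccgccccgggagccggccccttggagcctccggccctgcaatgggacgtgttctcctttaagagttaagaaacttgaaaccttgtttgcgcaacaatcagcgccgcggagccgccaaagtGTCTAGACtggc
BAMBI (chr10:28677271-28677520, + strand): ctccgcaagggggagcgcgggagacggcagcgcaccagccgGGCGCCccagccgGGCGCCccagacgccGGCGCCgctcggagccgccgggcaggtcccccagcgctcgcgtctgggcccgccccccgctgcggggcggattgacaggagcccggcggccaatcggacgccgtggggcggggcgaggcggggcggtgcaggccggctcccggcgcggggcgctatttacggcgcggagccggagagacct

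The BAMBI window held 3 copies of GGCGCC, which begin 209, 196 and 181 bases before the start. The SMAD6 window held 1 copy of GTCTAGAC, which begins 12 bases before the start. The ID1 and ID2 windows held none of the 4 motifs. GGCGCC was present in 16% of all 27305 RefSeq windows of this length and in 13 of the 41 member windows (31.7%), while GTCTAGAC was present in 0.183% of all windows and in SMAD6 alone among the members. Member windows are richer in G and C, with a median of 69.2% against 57.6% for all windows. A match describes the letters of these windows only, and binding was not measured. Among the other called members with a window, FST had a TGANTCA match, reading TGATTCA, 160 bases before its start. TGFBI and LTBP2 had GGCGCC 111 and 222 bases before theirs, and TGIF1 had CAGACA 224 bases before its start. The called members NOG and BMP2 had no window and were not searched.

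Levels between genes were compared as TMM-scaled CPM per kb of exon, the length being the union of the exons in GENCODE release 29. With that length, TGFB1 had the highest level of all members in A375neg, at 69.8 ± 2.91 CPM per kb (SD, n = 3), followed by FST at 51.1 ± 1.69 and INHBA at 46.3 ± 2.92. This order depends on the length used. With the longest transcript TGFB1 was still the highest, at 81.6 CPM per kb, but INHBA and TGFBI, at 63.4 CPM per kb each, passed FST at 59.8. With the median length of the coding transcripts INHBA at 192 and TGFBI at 154 CPM per kb both stood above TGFB1 at 81.6 and FST at 60.0. The BMP ligands were lower, with GDF11 at 11.4, BMP2 at 9.39 and BMP6 at 2.22 CPM per kb, and BMP4 and BMP8A under 1. In A375RIPK4.KO, FST stood at 16.6 CPM per kb, below FSTL3 at 22.8 CPM per kb, whereas in A375neg FSTL3 was at 20.7.

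TGFBR2 was the most abundant of the type I and II receptors, at 31.5 ± 2.14 CPM per kb in A375neg and 20.4 in A375RIPK4.KO. Its level exceeded that of TGFBR1, at 4.84 ± 0.39 and 3.05 CPM per kb, with each of the 3 length definitions tried. ACVR1, ACVR1B, BMPR1A and BMPR2 lay close together between 3.67 and 4.32 CPM per kb in A375neg, ACVR2A at 1.08 and ACVR2B at 1.12, and BMPR1B at 0.308, although ACVR1B was at 12.5 with the median coding length. Of the SMADs, SMAD3 at 12.1 ± 0.68 and SMAD5 at 11.3 ± 0.34 CPM per kb were the highest, SMAD4 was at 5.54, and SMAD9 was lowest at 0.12. SMAD1 at 2.00 ± 0.34 and SMAD2 at 1.99 ± 0.14 did not differ beyond their spread, but with the longest transcript as the length they did, at 3.68 ± 0.63 and 2.09 ± 0.15 CPM per kb. With the median length of the coding transcripts SMAD3 was at 72 CPM per kb, while SMAD9 remained the lowest of the 6. SMAD7 was at 2.19 and SMAD6 at 1.45 CPM per kb in A375neg, but at 8.63 and 3.24 with the median coding length, by which SMAD7 was above SMAD1 at 6.16 and SMAD2 at 6.92.

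**Figure D3:**
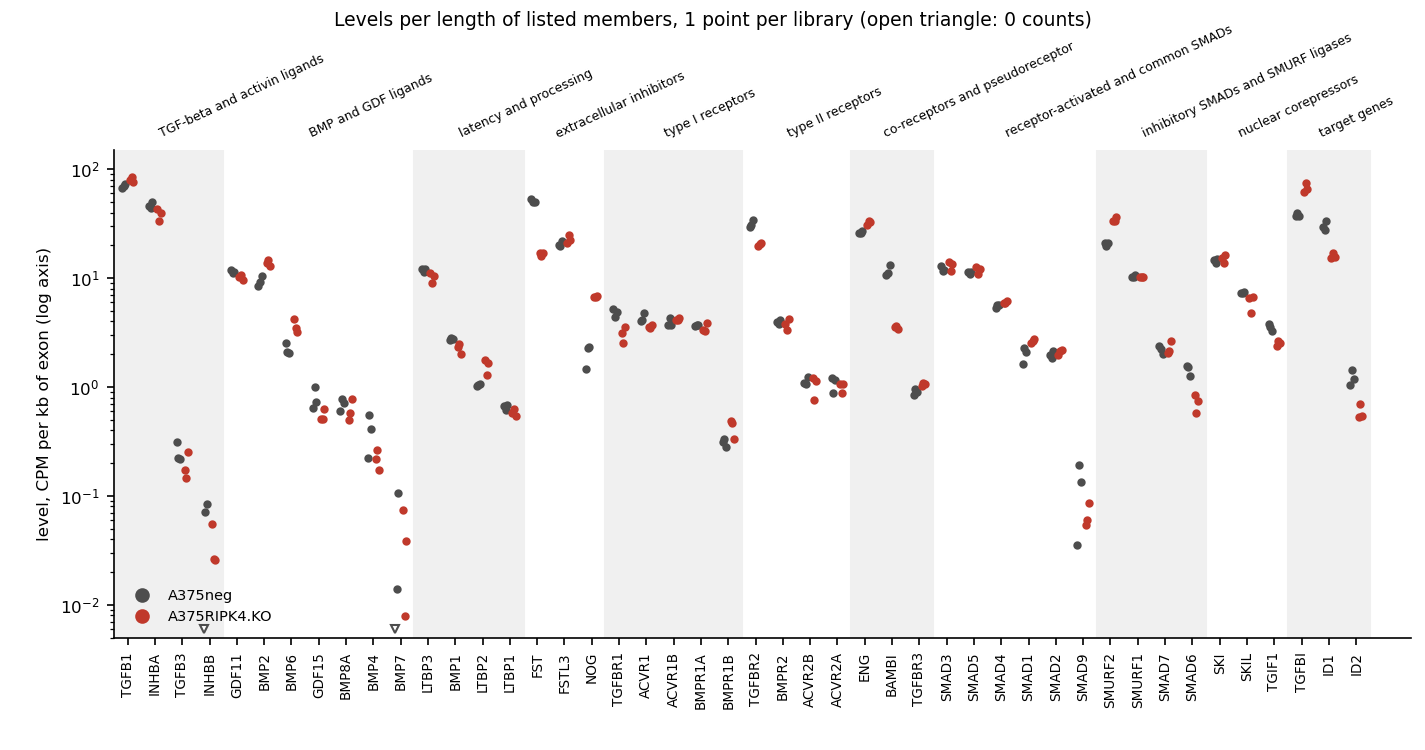
Level of the 46 listed members in CPM per kb of union exon (log axis), with 1 point per library for A375neg and A375RIPK4.KO and members ordered within each role by their A375neg mean. TGFB1 at 69.8 and FST at 51.1 CPM per kb have the highest means in A375neg, and INHBB, BMP7 and SMAD9 lie at the foot of the plot.

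Further genes of the pathway outside the 48 members were counted from lists of ligands, extracellular regulators, receptors, SMAD regulators and targets written from general knowledge. Of 131 such genes 88 were tested and 25 were called (28.4% against 16.6% of all genes tested), 12 higher and 13 lower (8.4% and 8.24% of all genes). In the list of other TGF-beta targets 12 of 24 tested genes were called (50% against 16.6% of all genes), 6 higher and 6 lower, and the median log2 fold change was -0.09. CCN2, the connective tissue growth factor, had 2736, 2612 and 2540 counts in A375neg and 8256, 7753 and 8705 in A375RIPK4.KO, and was 3.44-fold higher (adjusted p = 1.18e-06). TPM1, an actin-binding tropomyosin, was 2.15-fold higher (adjusted p = 8.98e-06), and CCN1, a matricellular protein related to CCN2, 1.92-fold higher (adjusted p = 4.06e-05). PDGFB, a growth factor subunit, was 1.96-fold higher (adjusted p = 0.0127, lost without replicate 2 of A375neg or replicate 3 of A375RIPK4.KO). Lower were ADAM19, a membrane metalloprotease, and ACTA2, smooth muscle actin. ADAM19 had 3721, 4175 and 4330 counts in A375neg and 985, 1100 and 1215 in A375RIPK4.KO, a 3.38-fold lower level (adjusted p = 9.94e-07), and ACTA2 was 2.22-fold lower (adjusted p = 0.00246). The remaining called genes of the list were COL4A1 and COL4A2 (higher) and CDKN1A, BHLHE40, VEGFA and KLF10 (lower), of which BHLHE40 was lost without replicate 2 or 3 of A375neg or replicate 1 of A375RIPK4.KO (adjusted p up to 0.118). Among targets in general use as readouts of the pathway, PMEPA1 had a log2 fold change of -0.16 (adjusted p = 0.116) and JUNB one of -0.08 (adjusted p = 0.586), neither of them called over all libraries. Without replicate 2 of A375RIPK4.KO the PMEPA1 value was -0.18 and passed the threshold (adjusted p = 0.0412), and the JUNB value turned to 0.0086 without replicate 1 of A375RIPK4.KO.

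None of the 9 tested BMP targets outside the members was called by edgeR, where 16.6% of all genes were, and 1 had an unadjusted p under 0.05, as had 4333 of the 14443 genes. Nothing particular to the list is read from these counts. The gene with an unadjusted p under 0.05, KLF2, a shear-responsive transcription factor, had 272, 246 and 286 counts in A375neg and 158, 165 and 206 in A375RIPK4.KO (log2 fold change -0.47, adjusted p = 0.0558), and DESeq2 called it (adjusted p = 0.0492). The other 8 had log2 fold changes between -0.87 and 0.60, and MSX1, a homeobox gene at 440 to 618 counts, had one of -0.10 (adjusted p = 0.57).

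**Figure D4:**
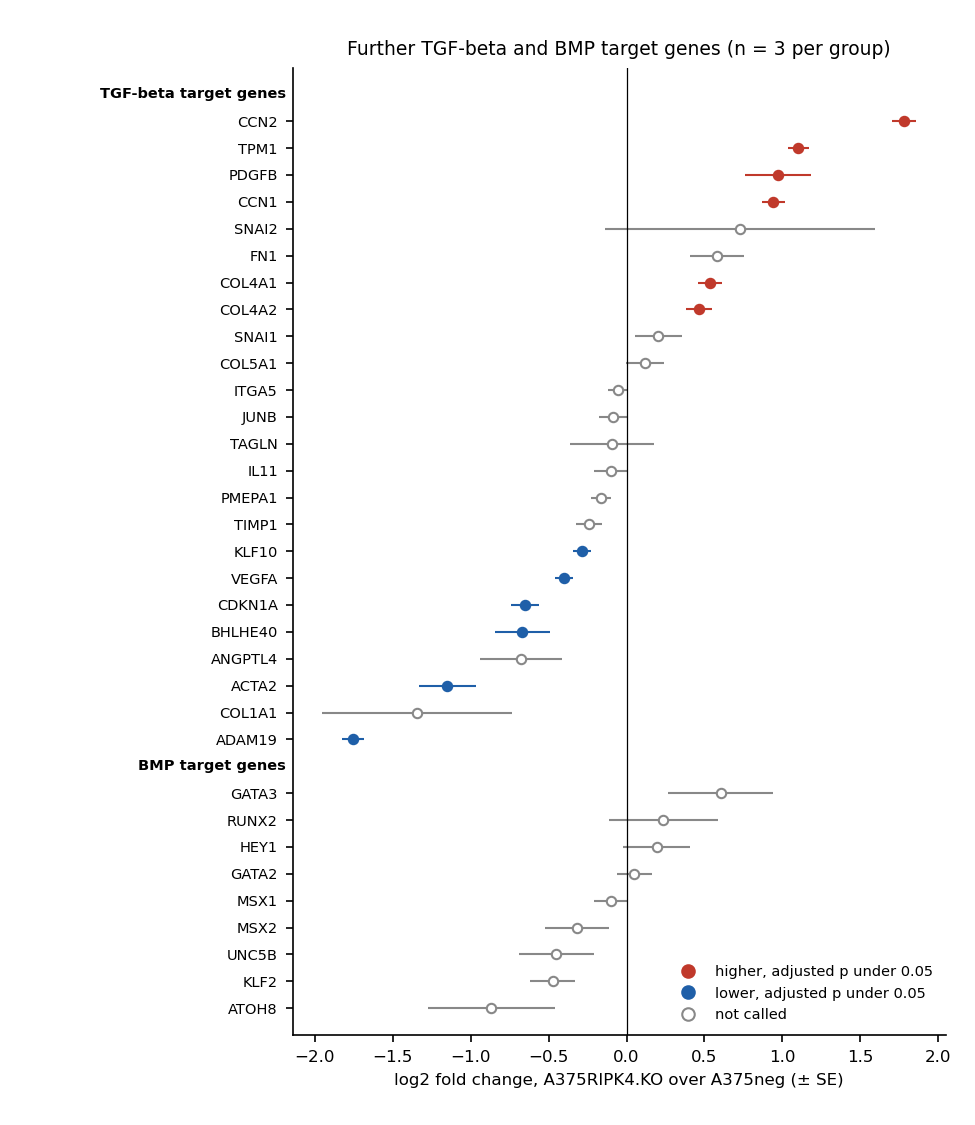
Log2 fold change, A375RIPK4.KO over A375neg, of the tested genes in the lists of other TGF-beta and BMP targets (points with bars of 1 SE, n = 3 libraries per group, filled where the adjusted p was under 0.05). CCN2 at 1.78 and ADAM19 at -1.75 mark the ends of the TGF-beta list, and no BMP target is filled.

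Of the other extracellular regulators 5 of 15 tested genes were called (33.3% against 16.6% of all genes). FSTL1, a secreted glycoprotein of the follistatin family, had 304, 366 and 332 raw counts in A375neg and 1116, 1116 and 1318 in A375RIPK4.KO, a 3.89-fold higher level (log2 fold change 1.96, adjusted p = 1.29e-06). CHRDL1, a BMP antagonist related to chordin, was 1.79-fold higher (adjusted p = 0.000244). Lower were ITGB8, the integrin subunit that activates latent TGF-beta (1.63-fold, adjusted p = 0.00655), and PCSK5, a proprotein convertase (1.63-fold, adjusted p = 0.0386). The PCSK5 call was lost in 4 of the 6 fits that left out a library, namely without replicate 2 or 3 of A375neg or replicate 1 or 2 of A375RIPK4.KO. PCSK6, a convertase that can process TGF-beta family precursors, was singled out after its values were seen, with 3, 3 and 1 counts in A375neg and 58, 65 and 62 in A375RIPK4.KO. The ratio of its summed counts, scaled for library size, was 29 (95% counting interval 13.8 to 73.2, which covers counting error only).

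Among 4 tested receptors and co-receptors outside the members, NRP1 and RGMB were called (50% against 16.6% of all genes). NRP1, neuropilin 1, a co-receptor for semaphorins and VEGF that also binds TGF-beta, had 2671, 2928 and 3050 counts in A375neg and 1143, 1223 and 1370 in A375RIPK4.KO, a 2.11-fold lower level (adjusted p = 1.07e-05). RGMB, a BMP co-receptor, was 1.85-fold higher (adjusted p = 0.000297). Of 33 tested SMAD regulators 5 were called, a share of 15.2% that lies close to the 16.6% of all genes, and TOB1, an antiproliferative protein that can repress BMP-activated SMADs, was the only one changed by 1.5-fold, lower by a log2 fold change of -0.62 (adjusted p = 0.00302). Of the other ligands, 1 of 4 tested genes was called (25% against 16.6% of all genes). This was BMP8B, which had 643 to 775 counts in A375neg and 450 to 509 in A375RIPK4.KO (log2 fold change -0.48, adjusted p = 0.00448). Its sequence is near-identical to that of BMP8A, so the counting may have split their reads.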

How the data were processed

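RNA-seq of 6 libraries of A375 cells, 3 of A375neg and 3 of A375RIPK4.KO, was analysed. The labels and the series' design call the 3 libraries of a group biological replicates. The raw counts per gene were made and deposited by the authors, whose sequencing provider mapped the reads to GRCh38.p13, and the submitters' processing notes name cutadapt, FastQC, HISAT2, HTSeq and DESeq2, with versions not given in the sources used here. The normalized counts in the same table, a signal that the authors scaled by 1 size factor per library, served only to check the columns. The remaining columns hold the authors' own fold changes, test statistics and p-values and were not used.

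The raw counts were tested with edgeR 4.0.16 in R 4.3.3 (filterByExpr, TMM, quasi-likelihood test, Benjamini-Hochberg over all 14443 genes tested). The lowest total of a listed gene was 4 counts. A member with 0 counts may be present at up to 3 counts, or 0.112 to 0.137 CPM, which covers counting error only. A normalized count is the raw count rescaled to the mean TMM library size. The SE is that of the fitted log2 fold change. Exon lengths came from GENCODE release 29 (GRCh38), promoter windows from the RefSeq table of GRCh38.p14, in which 41 members matched by symbol. Values are given for every member called at an adjusted p under 0.05. Further pathway genes are named where called, changed at least 1.5-fold and at a mean of at least 50 counts, with at most 6 per list. A gene of these lists is not reported here and was left out of their counts. The remaining list genes are given as counts, and PCSK6, KLF2, MSX1, BMP8B, PMEPA1, JUNB and the other called targets were named beside them. The members, lists and rules were chosen with earlier results of these data known.

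Alternatives were DESeq2 1.42.0, its size factors within edgeR, all listed genes without a filter, a minimum mean of 50 counts, a replicate block, a gene length correction (lowess trend of log2 CPM on exon length removed, 92.8% of tested genes having a length), both together, and each library left out in turn. The steps were tested on simulated counts. Python 3.11.15 with matplotlib 3.10.9 drew the figures.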

Additional observations from a re-analysis of the deposited data

How the results depend on the processing

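Direction and side of the threshold held for FST, NOG, TGFBR1, TGFBR2, BAMBI, SMAD6, SMURF2, TGIF1, ID1, TGFBI and BMP2 under DESeq2, its size factors, no filter, a minimum mean of 50 counts, the replicate block, the gene length correction, both together and each library left out. The number of called members was 14 to 17 over those 7 settings and 12 to 18 over the 6 libraries left out. With a minimum mean of 50 counts ID2 was not tested, and the median log2 fold change of members was 0.023 in place of -0.09. Leaving out each library gave medians of -0.13 to -0.013 and 3 to 5 members at least 1.5-fold higher. Signs that turned belonged to members and targets that were not called. Over the libraries left out, ACVR2B ran from -0.261 to 0.0497, BMPR2 from -0.145 to 0.0168, SMAD7 from -0.0537 to 0.13, SMURF1 from -0.0244 to 0.0148 and JUNB from -0.177 to 0.00864. The causes were not tested.

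Same-numbered libraries of the 2 groups had deviations that correlated at 0.0823, 0.0357 and -0.0119, so the numbers were not taken to pair them, and not every library correlated best with its own number. With a replicate block 16 members were called, INHBA being added, and RIPK4 had a log2 fold change of -2.69. With the replicate block and the gene length correction together 17 were called, INHBA and SMAD1 being added, and the SMURF1 log2 fold change was 0.00514, beside 0.00506 with the length correction alone. Over all genes the calls went from 2403 to 2549 with the block. The planned comparison of levels with a length from the deposited table was not run, because each of its rows gives 1 exon only. The longest transcript and the median coding transcript, chosen after seeing the data, took its place. Genes under 3 counts per library could not be told from absent at this depth, and members near 50 counts, such as ID2, carried the largest errors among the calls.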

Other observations

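Replicate 2 of A375RIPK4.KO had the lowest raw count of its group for several long genes. Among them ITGB8, COL4A1, LTBP2, RGMB, TGFBR1 and SMAD6 were called over all libraries. TGFBR1 (404 counts against 478 and 583) and SMAD6 (115 against 162 and 154) remained called without that library. The genes whose counts follow were not called over all libraries. FN1, fibronectin, with 17.3 kb of union exon, had 13707, 14614 and 16477 counts in A375neg and 21701, 14167 and 25042 in A375RIPK4.KO. Its log2 fold change was 0.58 (adjusted p = 0.0521, edgeR) over all libraries and 0.79 (adjusted p = 2.11e-05) without replicate 2, and it passed the threshold with the gene length correction (adjusted p = 0.0095). THBS1, thrombospondin 1, an activator of latent TGF-beta, had 51674, 51854 and 55884 counts in A375neg and 35204, 24146 and 42802 in A375RIPK4.KO. The THBS1 value was -0.51 (adjusted p = 0.0699) over all libraries and passed the threshold without replicate 2 (-0.31, adjusted p = 0.00726) and also without replicate 3 of A375RIPK4.KO (-0.67, adjusted p = 0.0321). The SMAD coactivators EP300 and CREBBP had 677 and 919 counts in replicate 2 of A375RIPK4.KO, where the other libraries of that group had 1134 and 1136 for EP300 and 1452 and 1451 for CREBBP. Among members not called, ACVR2B (278 against 424 and 428), SKIL (881 against 1150 and 1253) and INHBA (6534 against 7951 and 8026) were among those with a low value in that library. These genes were picked after their values were seen.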
